A study of Mus musculus with 6 samples.

Results

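The genes described here were 10 members of the Nrf2 pathway and of cystine uptake, taken by gene symbol from the 36210 gene rows of the deposited expression table. They were Nfe2l2, Keap1, Slc7a11, Gclc, Gclm, Gsr, Txnrd1, Srxn1, Hmox1 and Nqo1. Each symbol matched 1 row, and all 10 were among the 20363 genes that passed the filter on low counts. RNA came from cells labelled astrocytes from the brain of APP/PS1 mice, a line that carries mutant human transgenes for amyloid precursor protein and presenilin. The AVE0991 group (3 libraries) came from APP/PS1 mice injected intraperitoneally with 10 mg per kg of AVE0991, a non-peptide compound that activates Mas1, the receptor of angiotensin-(1-7), once daily for 30 days. The vehicle group (3 libraries) came from APP/PS1 mice that received 0.9% sterile saline by the same route and schedule. The mice were 8 months old per the design text, both groups carried the APP/PS1 transgenes, and no group without them was analysed here. Whether the libraries of a group stem from different animals is not stated in the labels, and the p-values then cover the spread among these libraries, which may be technical.

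Nrf2, the transcription factor encoded by Nfe2l2, is the main switch of the antioxidant response. Keap1 holds it in the cytoplasm and presents it to a ubiquitin ligase. Oxidants and electrophiles modify Keap1, and Nrf2 then accumulates and binds antioxidant response elements together with small Maf proteins. Its targets import cystine, make and recycle glutathione, reduce thioredoxin and peroxiredoxins, and break down haem and quinones. In brain, astrocytes show stronger Nrf2 activity than neurons. They take up cystine through system xc-, whose transport subunit is encoded by Slc7a11, and supply neurons with precursors of glutathione.

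Promoter windows of RefSeq (GRCm38.p6, 250 bases before to 50 bases after a transcript start) were given for 7 of the 10 genes, in 9 windows. They were searched on both strands for the core of the antioxidant response element, TGACNNNGC, and for the element bound by ATF4, TGATGNAA. The stretches that hold the antioxidant core are shown because this is the sequence that Nrf2 is known to bind. Each is given on the strand of its gene with 10 bases on either side, and capitals mark the core, or its complement where the core lies on the opposite strand. The core was found in windows of Nfe2l2 (positions -240 to -232, chr2:75704885-75704913, minus strand), Gclm (-134 to -126, chr3:122245413-122245441, plus strand), Txnrd1 (-92 to -84, chr10:82859104-82859132, plus strand, 1 of its 3 windows) and Srxn1 (29 to 37 after the start, chr2:152105542-152105570, plus strand).
Nfe2l2: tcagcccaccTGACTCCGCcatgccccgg
Gclm: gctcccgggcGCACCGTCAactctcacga
Txnrd1: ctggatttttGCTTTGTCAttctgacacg
Srxn1: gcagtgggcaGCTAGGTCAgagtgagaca

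The core matched in 4 of 9 windows of the members and in 12.4% of all 32851 windows in the table. The longer form matched in 1 of 9 windows of the members and in 3.04% of all windows. The window of Slc7a11 is shown without its transcribed part because this gene had the largest difference between the groups among the 10. It held no antioxidant core. It held the ATF4 element at 2 places, in capitals, from -66 to -59 on the strand of the gene and from -47 to -40 on the opposite strand, as did 3.97% of all windows at 1 place or more. ATF4 is a transcription factor of the response to amino acid shortage, and Slc7a11 is a known target of both ATF4 and Nrf2. The stretch lies at chr3:50443614-50443863 on the minus strand and covers positions -250 to -1.
Slc7a11: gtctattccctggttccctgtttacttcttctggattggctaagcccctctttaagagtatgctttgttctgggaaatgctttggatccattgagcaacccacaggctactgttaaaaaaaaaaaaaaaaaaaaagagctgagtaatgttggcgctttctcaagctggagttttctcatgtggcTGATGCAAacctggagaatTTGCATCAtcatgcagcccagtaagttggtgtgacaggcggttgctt

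A match of letters is a description and was not tested for binding. Hmox1, Gclc and Gsr had no entry.

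The libraries held 44583296 to 50066692 counts on gene rows. Astrocyte markers were abundant, with a summed level of 6376 to 7908 CPM (counts scaled to library size with TMM factors, the unit of all count levels below) in AVE0991 libraries and 5648 to 7013 CPM in vehicle libraries over 10 genes. Markers of other cells were abundant too: the 8 neuron markers summed to 3948 to 4698 CPM in AVE0991 and 4534 to 5373 CPM in vehicle libraries, and the 6 oligodendrocyte markers to 5470 to 11780 CPM and 3609 to 7876 CPM. AVE0991 replicates 2 and 3 stood apart, with 1475 and 1506 CPM for 9 genes of cerebellar granule and related neurons, against 207 CPM in AVE0991 replicate 1 and 176 to 198 CPM in vehicle libraries. Of all 10 marker lists, 1 gene passed the test between the groups by edgeR, Eomes of the cerebellar list. In such mixed RNA, fewer cells of a type and less RNA per cell cannot be told apart.

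**Figure D1:**
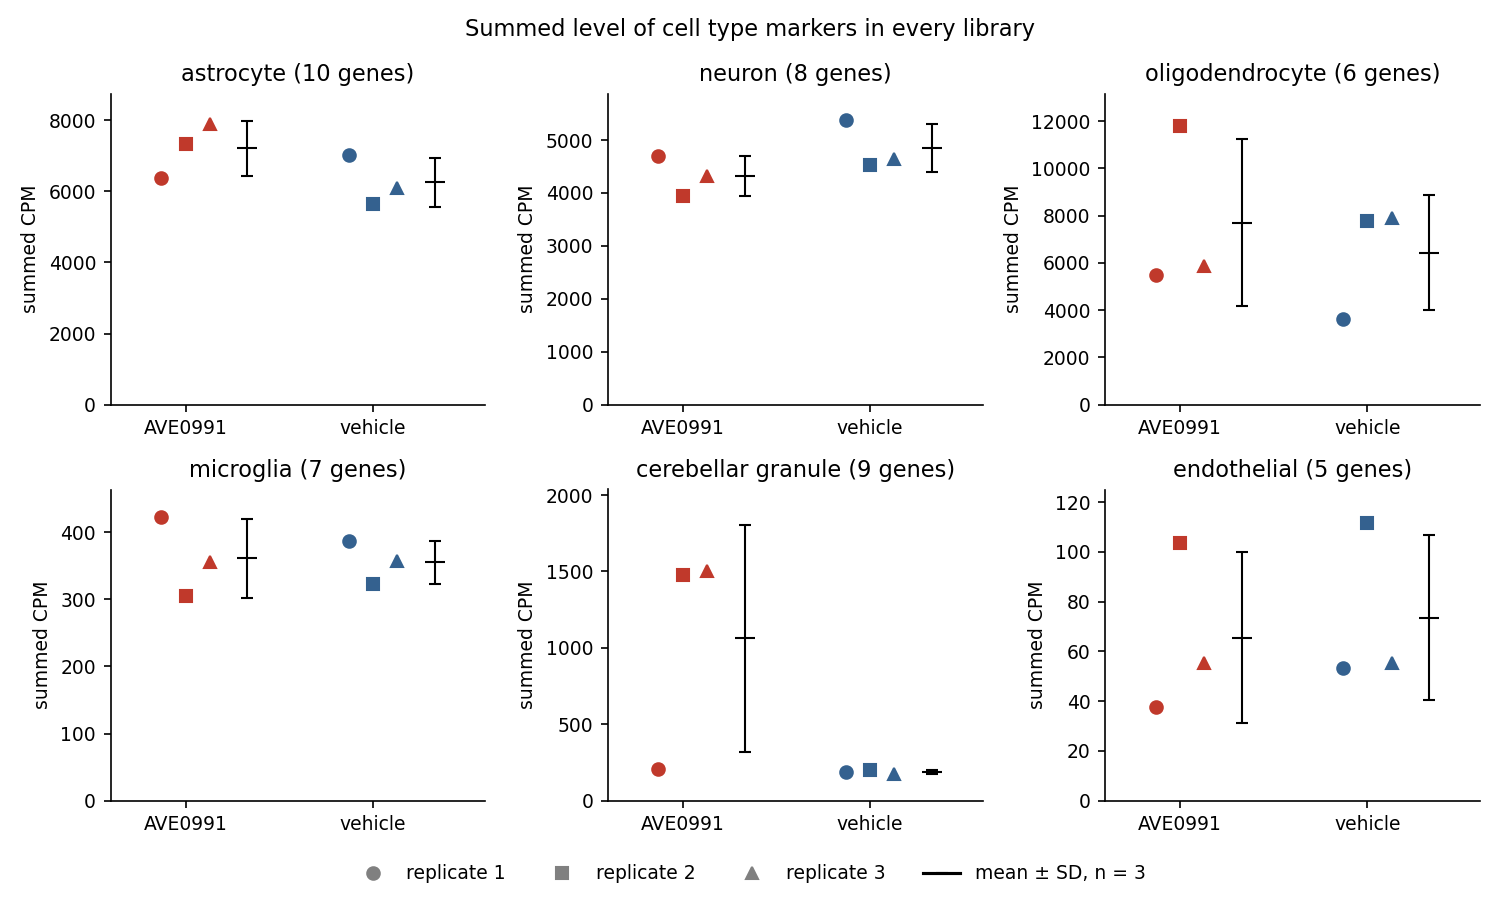
Summed CPM of the marker genes of 6 cell types (y axes) in the AVE0991 libraries (red, left) and the vehicle libraries (blue, right), with symbols for replicates and black bars for the mean ± SD of 3 libraries. The groups overlap for astrocyte, neuron, oligodendrocyte, microglia and endothelial markers, and AVE0991 replicates 2 and 3 hold 1475 and 1506 CPM of cerebellar granule markers against 207 CPM or less elsewhere.

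The comparison between AVE0991 and vehicle asked whether the compound changed RNA levels in these cells. None of the 10 genes passed edgeR's quasi-likelihood test at an adjusted p under 0.05 over all genes tested, against a background of 0.0344% of the 20363 genes called higher and 0.83% called lower. At an unadjusted p under 0.05, Slc7a11 was the 1 member below the threshold, where 23.6% of all genes were, 10.9% of them higher and 12.7% lower as shares of all genes tested. The log2 fold changes of AVE0991 over vehicle were above 0 for 9 members, between 0.06 and 0.43, and below 0 for Slc7a11, at -0.73. Their median was 0.14, against -0.0069 over all genes tested. It was 0.06 after a correction for the GC content of transcripts in each library, with 8 members above 0. It was 0.06 with plain library totals and 0.06 on the log2(FPKM + 0.1) scale, with 7 and 7 members above 0. The median over all genes tested was -0.0215, -0.0926 and -0.0862 in these fits, in that order. The groups did not overlap for 2 members that were higher in AVE0991, Hmox1 and Gsr, where 14.3% of all genes had this pattern. They did not overlap for 1 member that was lower, Slc7a11, where 16.3% of all genes had it. Both counts are near what the background gives for 10 genes.

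**Figure D2:**
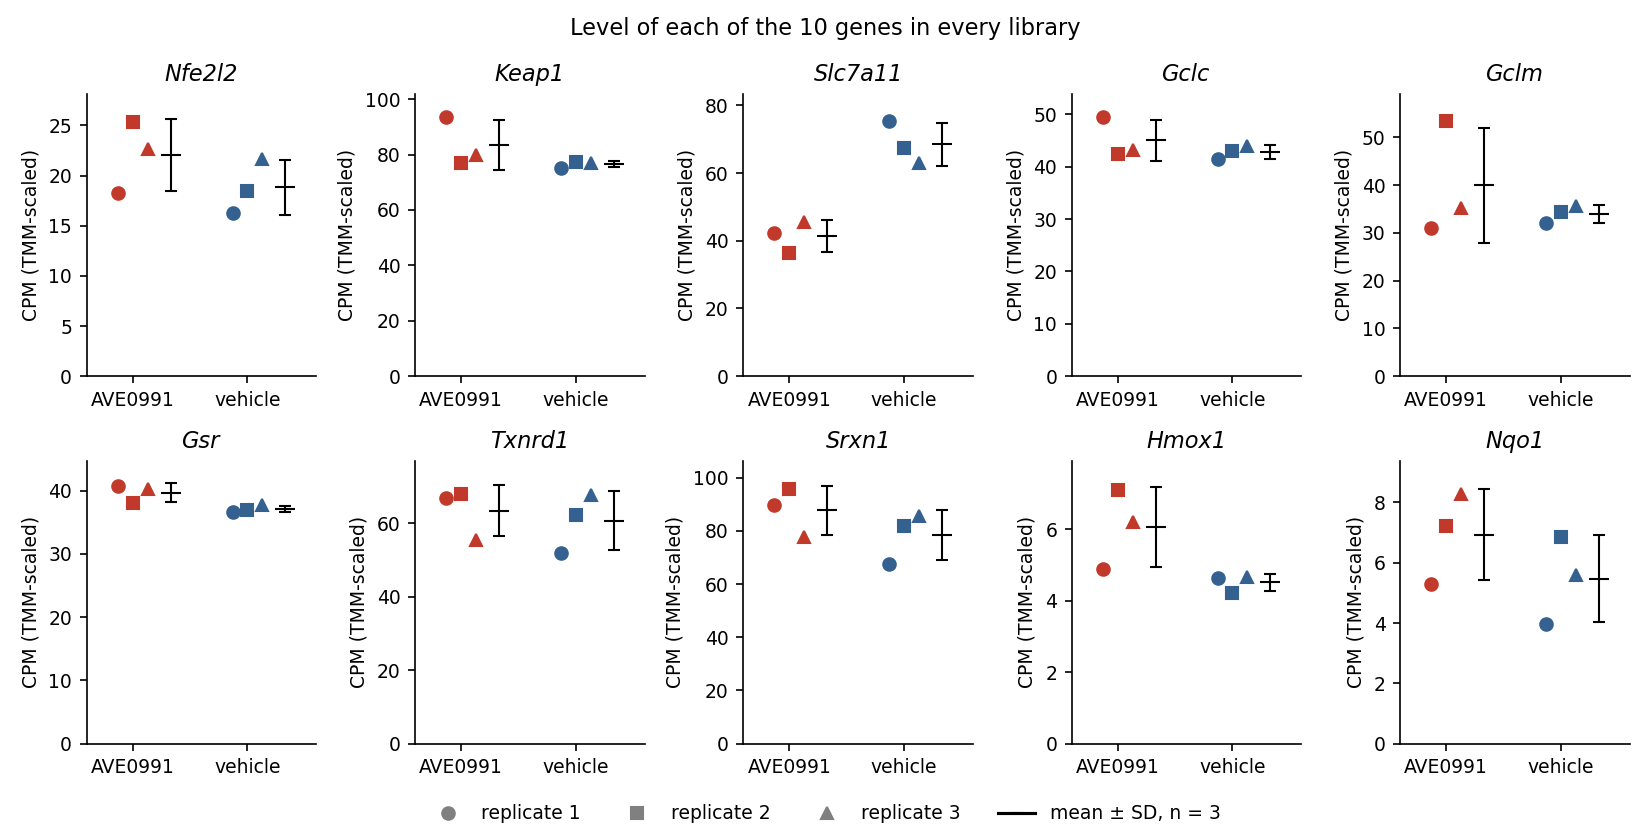
TMM-scaled CPM (y axes) of the 10 genes in AVE0991 libraries (red, left) and vehicle libraries (blue, right), with symbols for replicates and black bars for the mean ± SD of 3 libraries. Slc7a11 lies between 36.4 and 45.7 CPM in AVE0991 and between 62.9 and 75.4 CPM in vehicle libraries, while 7 of the other 9 genes overlap between the groups.

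Slc7a11 encodes xCT, the subunit of system xc- that exchanges extracellular cystine for intracellular glutamate. It was measured at 42.3, 36.4 and 45.7 CPM in the AVE0991 libraries (replicates 1 to 3), against 75.4, 67.3 and 62.9 CPM in the vehicle libraries (replicates 1 to 3). The highest AVE0991 library lay below the lowest vehicle library. The means were 41.4 ± 4.70 CPM in AVE0991 and 68.5 ± 6.31 CPM in vehicle libraries (SD, n = 3 each), a log2 fold change of -0.73 (SE 0.12, 95% interval -1.02 to -0.44) or 1.65-fold lower. The edgeR adjusted p was 0.0509, just above the threshold, and the gene stood at rank 239 by p among the 20363. DESeq2 called it lower (log2 fold change -0.71, adjusted p = 0.000239), as it did 7.11% of the genes to which it gave an adjusted p. It also called 5.39% of them higher, with none of the 10 among these. By limma-voom with quality weights Slc7a11 was called lower as well (-0.64, adjusted p = 0.0335), where 3.54% of all genes were called lower and 2.2% higher. The authors' deposited table gave a log2 fold change of -0.71 and a DESeq2 q-value of 0.000931 for it, and 2.93% of the gene rows with a q-value were lower at a q under 0.05.

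The astrocyte markers had a median log2 fold change of 0.63 over the 10 genes, with 0 of them called by edgeR. Their summed levels overlapped between the groups. Without AVE0991 replicates 2 and 3, the libraries with cerebellar markers, the log2 fold change of Slc7a11 was -0.69. That value rests on AVE0991 replicate 1 alone in its group. The part of the mix of cells in the difference of Slc7a11 was not tested. Leaving out single libraries gave -0.80 to -0.63, and without AVE0991 replicate 1 the gene passed (-0.74, edgeR adjusted p = 0.0264). That fit kept the libraries with cerebellar markers and called 995 of 20918 genes lower. Without any other single library Slc7a11 did not pass (edgeR adjusted p from 0.109 to 0.227).

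The GC content of transcripts moved with the difference between the groups across all genes. The longest GENCODE M21 transcript of Slc7a11 has a GC content of 40.7%, the lowest of the 10 members. The 983 tested genes within 1 percentage point of it showed a median of -0.40 on the log2 scale, and in 55.2% of them every AVE0991 library lay below every vehicle library. By edgeR 4.17% of these 983 genes were called. After a correction for GC content in each library, Slc7a11 stood at -0.32 (adjusted p = 0.282). The sign held in that fit while the size dropped by more than 1.5 times. The labels give no preparation batch, so the part of library preparation in this difference was not tested.

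**Figure D3:**
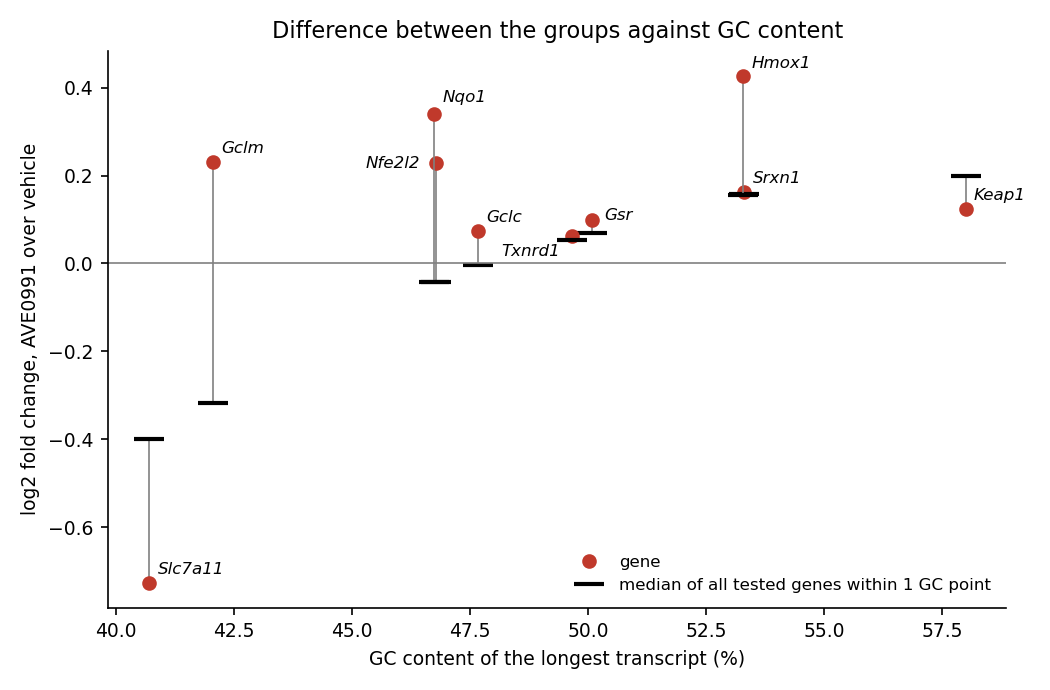
Log2 fold change of AVE0991 over vehicle (y axis) against the GC content of the longest transcript in percent (x axis) for the 10 genes (red points), each joined by a line to the median of all tested genes within 1 percentage point of its GC content (black bars). Slc7a11 at -0.73 lies below its bar at -0.40, and Gclm at 0.23 lies above its bar at -0.32.

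The deposited FPKM values (fragments per kilobase of transcript, scaled to library size), which take transcript length into account, gave a smaller difference. Slc7a11 stood at 7.03, 6.0 and 6.88 FPKM in the AVE0991 libraries (replicates 1 to 3), against 10.3, 10.5 and 8.53 FPKM in the vehicle libraries (replicates 1 to 3). The groups did not overlap on this scale either, and the ratio of the means was 0.680. Limma on log2(FPKM + 0.1) gave a log2 difference of -0.55 (adjusted p = 0.0817).

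The count and the FPKM of a gene together imply the length that was used for it. For Slc7a11 this length was 6019, 5801 and 6321 bases in the AVE0991 libraries (replicates 1 to 3), against 7469, 6704 and 7589 bases in the vehicle libraries (replicates 1 to 3). It was shorter in every AVE0991 library, with a ratio of means of 0.834, while the ratios of the other 9 members lay between 0.990 and 1.004. Among 12794 genes with at least 1 FPKM in every library, the implied length was shorter in every AVE0991 library for 8.41%, and shorter by at least 10% as well for 1.91%. The estimated counts of Slc7a11 were not whole in 4 of the 6 libraries, and how the counts were estimated was not given.

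**Figure D4:**
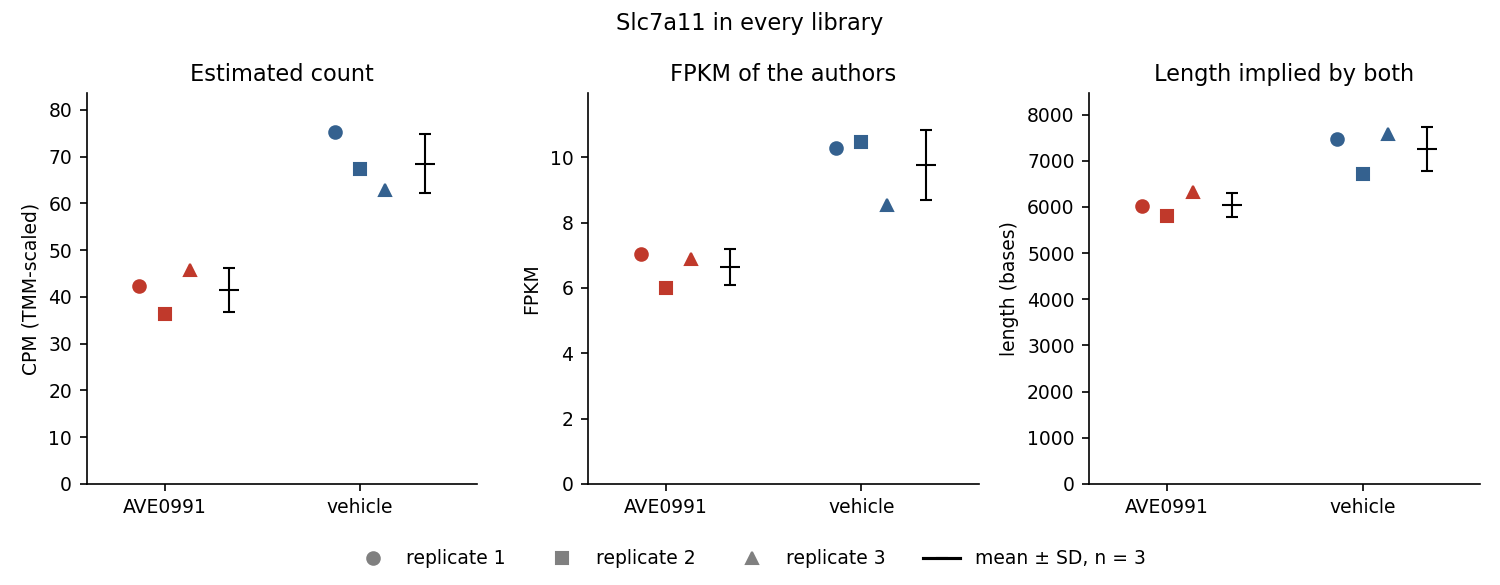
Slc7a11 in AVE0991 libraries (red, left) and vehicle libraries (blue, right) as TMM-scaled CPM, as FPKM of the authors and as the length in bases implied by both (y axes), with symbols for replicates and black bars for the mean ± SD of 3 libraries. All 3 measures are lower in every AVE0991 library, and the implied length lies between 5801 and 6321 bases against 6704 to 7589 bases in vehicle libraries.

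The transporter works as a pair with the heavy chain encoded by Slc3a2, which it shares with other amino acid transporters. Slc3a2, singled out after its values were seen, stood at 119, 155 and 139 CPM in the AVE0991 libraries (replicates 1 to 3), against 97.7, 111 and 105 CPM in the vehicle libraries (replicates 1 to 3). Every AVE0991 library was above every vehicle library, the opposite of Slc7a11. Of all genes tested, 14.3% were higher in every AVE0991 library. The difference did not pass by edgeR (log2 fold change 0.40, SE 0.12, edgeR adjusted p = 0.134, DESeq2 adjusted p = 0.0360). The CPM of Slc7a11 was 0.235 to 0.355 of that of Slc3a2 in AVE0991 libraries and 0.601 to 0.772 in vehicle libraries. The GC content of the longest transcript was 53.4% for Slc3a2 and 40.7% for Slc7a11. Of the 1782 genes within 1 percentage point of 53.3%, the value of Hmox1, 26.7% were higher in every AVE0991 library. Their median was 0.16 on the log2 scale, against -0.40 for the 983 genes around Slc7a11. The part of GC content in the opposite directions of Slc3a2 and Slc7a11 was not tested.

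Neither of the 2 regulators among the members passed the test. Nfe2l2, which encodes Nrf2 itself, reached 18.2, 25.3 and 22.6 CPM in the AVE0991 libraries (replicates 1 to 3), against 16.3, 18.5 and 21.7 CPM in the vehicle libraries (replicates 1 to 3). The groups overlapped (log2 fold change 0.23, 95% interval -0.15 to 0.61, edgeR adjusted p = 0.428). Its direction turned without AVE0991 replicates 2 and 3, where it stood at -0.04, and it was 0.12 without AVE0991 replicate 2. Nrf2 is controlled largely through protein turnover, which RNA counts do not measure.

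Keap1, the repressor and sensor, reached 93.5, 77.0 and 79.8 CPM in the AVE0991 libraries (replicates 1 to 3), against 75.1, 77.3 and 77.1 CPM in the vehicle libraries (replicates 1 to 3). The vehicle libraries lay close together. AVE0991 replicate 1 was the highest library, replicate 3 lay slightly above the vehicle range and replicate 2 within it. The log2 fold change was 0.12 (95% interval -0.12 to 0.37, adjusted p = 0.498), -0.08 after the GC correction, and 0.04 without AVE0991 replicate 1.

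Glutathione synthesis starts with glutamate-cysteine ligase, made of the catalytic subunit Gclc and the modifier subunit Gclm. Gclc reached 49.6, 42.4 and 43.2 CPM in the AVE0991 libraries (replicates 1 to 3), against 41.4, 43.1 and 43.9 CPM in the vehicle libraries (replicates 1 to 3). The groups overlapped, with a log2 fold change of 0.07 (95% interval -0.16 to 0.31, adjusted p = 0.683). Without AVE0991 replicate 1, its highest library, it was 0.0026. The sign changed with the scale: it was -0.0094 with plain library totals and -0.013 on the log2(FPKM + 0.1) scale. The median over all genes tested was -0.0926 and -0.0862 on these scales, against -0.0069 in the main fit.

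Gclm reached 31.0, 53.5 and 35.3 CPM in the AVE0991 libraries (replicates 1 to 3), against 32.0, 34.4 and 35.6 CPM in the vehicle libraries (replicates 1 to 3). AVE0991 replicate 2 alone lay above the vehicle range, and without it the log2 fold change was -0.03 instead of 0.23 (95% interval -0.25 to 0.71, adjusted p = 0.525 with all libraries). That library also held the highest sum of oligodendrocyte markers, at 11780 CPM, and their part in the value of Gclm was not tested. The GC content of Gclm was 42.1%, where the 1191 genes within 1 percentage point showed a median of -0.32 on the log2 scale, and after the GC correction Gclm stood at 0.54 (adjusted p = 0.288). Per length, the FPKM of Gclc was 0.956, 0.474 and 0.731 of that of Gclm in AVE0991 replicates 1, 2 and 3, and 0.775, 0.747 and 0.736 in the vehicle libraries (replicates 1 to 3). This ratio was even in vehicle and uneven in AVE0991 libraries, with no difference in one direction.

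Gsr encodes glutathione reductase, which returns oxidised glutathione to its reduced form. It was measured at 40.7, 38.0 and 40.3 CPM in the AVE0991 libraries (replicates 1 to 3), against 36.7, 36.9 and 37.7 CPM in the vehicle libraries (replicates 1 to 3). Every AVE0991 library was above every vehicle library, but by a small amount, with a log2 fold change of 0.10 (SE 0.08, 95% interval -0.10 to 0.30, adjusted p = 0.512). After the GC correction it was 0.02. A difference of more than 0.30 on the log2 scale lies outside this interval.

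The thioredoxin branch was covered by Txnrd1, the cytosolic thioredoxin reductase, and Srxn1, sulfiredoxin, which repairs overoxidised peroxiredoxins. Txnrd1 reached 66.7, 68.0 and 55.4 CPM in the AVE0991 libraries (replicates 1 to 3), against 51.9, 62.4 and 67.7 CPM in the vehicle libraries (replicates 1 to 3). The ranges overlapped widely (log2 fold change 0.06, 95% interval -0.26 to 0.39, adjusted p = 0.811), and the direction turned under 4 of 18 alternative settings, with values down to -0.07. Srxn1 reached 89.7, 95.8 and 77.8 CPM in the AVE0991 libraries (replicates 1 to 3), against 67.7, 82.0 and 85.4 CPM in the vehicle libraries (replicates 1 to 3). Vehicle replicate 1 was the lowest of the 6 libraries for both genes. The log2 fold change of Srxn1 was 0.16 (95% interval -0.14 to 0.47, adjusted p = 0.479), 0.09 without vehicle replicate 1, 0.10 without AVE0991 replicate 2, and with the GC correction 0.0086.

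Hmox1 encodes haem oxygenase-1, an inducible enzyme that breaks haem down to biliverdin, iron and carbon monoxide. It was a gene of low level, with 211 to 326 counts per library. It stood at 4.89, 7.10 and 6.22 CPM in the AVE0991 libraries (replicates 1 to 3), against 4.65, 4.23 and 4.66 CPM in the vehicle libraries (replicates 1 to 3). The groups did not overlap, though AVE0991 replicate 1 lay close to the vehicle range. The means were 6.07 ± 1.11 CPM in AVE0991 and 4.51 ± 0.248 CPM in vehicle libraries (SD, n = 3 each), a log2 fold change of 0.43 (SE 0.18, 95% interval -0.0013 to 0.85), with an edgeR unadjusted p of 0.0505 and an adjusted p of 0.213. The excess was in AVE0991 replicates 2 and 3, the libraries with cerebellar markers, and without both it was 0.12 (adjusted p = 0.823). The part of those cells in the value was not tested. After the GC correction it was 0.27 (adjusted p = 0.506), and 26.7% of the 1782 genes within 1 percentage point of its GC content of 53.3% were higher in every AVE0991 library. Hmox1 is also made by microglia and macrophages, whose markers summed to 306 to 423 CPM (microglia, 7 genes) and 9.77 to 12.9 CPM (border macrophages, 4 genes) in AVE0991, against 323 to 387 CPM and 10.8 to 13.6 CPM in vehicle libraries. Erythroid markers, a sign of blood, summed to 24.7 to 100.3 CPM in AVE0991 and 50.95 to 349 CPM in vehicle libraries.

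Nqo1 encodes a quinone reductase that serves as a classical reporter of Nrf2 activity. It had 180 to 365 counts per library and stood at 5.28, 7.23 and 8.28 CPM in the AVE0991 libraries (replicates 1 to 3), against 3.97, 6.87 and 5.58 CPM in the vehicle libraries (replicates 1 to 3). The spread within each group was about as large as the difference between them, with means of 6.93 ± 1.52 CPM in AVE0991 and 5.47 ± 1.45 CPM in vehicle libraries (SD, n = 3 each). The log2 fold change was 0.34 (95% interval -0.27 to 0.95, adjusted p = 0.455), the widest interval of the 10. It was 0.17 without vehicle replicate 1, its lowest library, 0.20 without AVE0991 replicate 3, 0.54 without vehicle replicate 2, and -0.04 without AVE0991 replicates 2 and 3.

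**Figure D5:**
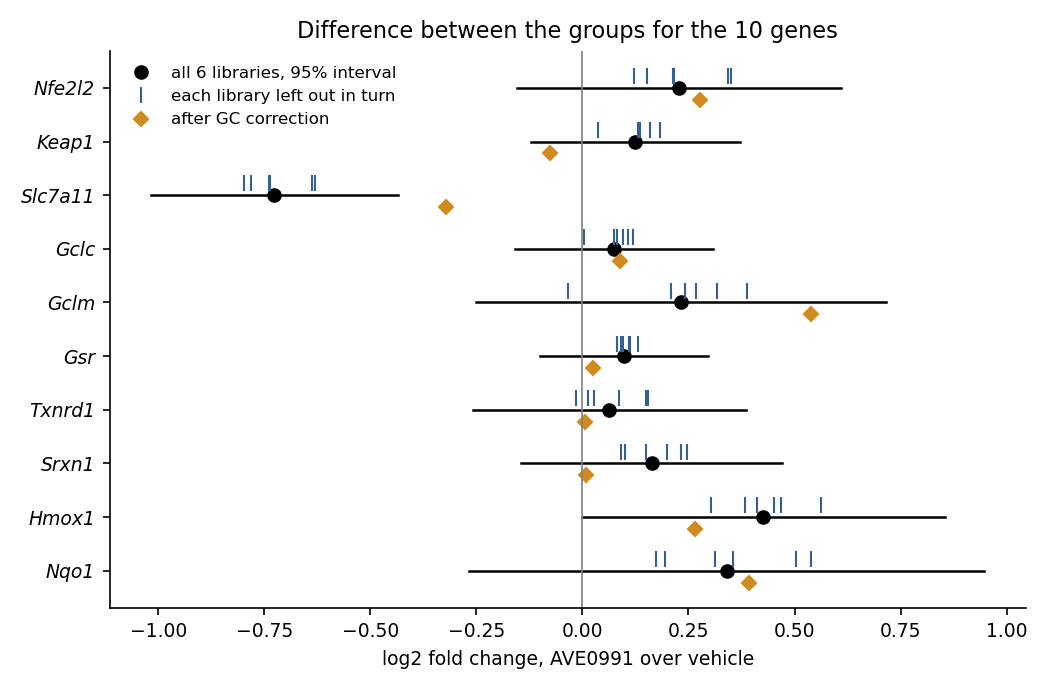
Log2 fold change of AVE0991 over vehicle (x axis) for the 10 genes (rows), with black points and lines for all 6 libraries and the 95% interval, blue ticks for fits without 1 library each and orange diamonds after the GC correction. The interval of Slc7a11 runs from -1.02 to -0.44, apart from 0, while its GC-corrected value is -0.32, and those of the other 9 genes include 0.

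Compared per length in FPKM, Srxn1 and Keap1 were the most abundant of the 10 genes and Nqo1 and Hmox1 the least abundant in both groups. In AVE0991 libraries the order was Srxn1 (30.1 ± 3.53 FPKM), Keap1 (24.8 ± 3.26), Gclm (19.1 ± 5.45), Txnrd1 (18.3 ± 2.27), Gsr (14.04 ± 0.831), Gclc (12.96 ± 1.49), Nfe2l2 (8.82 ± 1.24), Slc7a11 (6.64 ± 0.556), Nqo1 (4.50 ± 0.891) and Hmox1 (3.86 ± 0.631), as mean ± SD of 3 libraries. In vehicle libraries it was Srxn1 (28.3 ± 3.81 FPKM), Keap1 (24.1 ± 0.408), Txnrd1 (18.6 ± 2.64), Gclm (17.3 ± 1.14), Gsr (13.8 ± 0.434), Gclc (13.03 ± 0.521), Slc7a11 (9.76 ± 1.07), Nfe2l2 (8.05 ± 1.23), Nqo1 (3.81 ± 1.07) and Hmox1 (3.05 ± 0.131). Slc7a11 and Nfe2l2 changed places: every AVE0991 library of Slc7a11 lay below every AVE0991 library of Nfe2l2, while their ranges overlapped in vehicle libraries. Among neighbours in the AVE0991 order, Srxn1 and Keap1, Keap1 and Gclm, Gclm and Txnrd1, Gsr and Gclc, and Nqo1 and Hmox1 overlapped. In the vehicle order the overlapping neighbours were Srxn1 and Keap1, Txnrd1 and Gclm, Gsr and Gclc, Slc7a11 and Nfe2l2, and Nqo1 and Hmox1.

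Other genes of the pathway were described by list, with the 2 genes of smallest p in each. By edgeR 0 of them passed in either direction, where 0.864% of all genes tested did. Of 14 regulators of Nrf2, 9 had a log2 fold change above 0 and the median was 0.06. The sign of this median changed with the setting. It was -0.03 with plain library totals and -0.03 on the log2(FPKM + 0.1) scale. All genes tested had medians of -0.0926 and -0.0862 there. It was -0.015 after the GC correction, -0.002 by limma-voom and -0.0055 without AVE0991 replicate 2. All genes tested had medians of -0.0215, -0.0226 and -0.0064 there. DESeq2 and limma-voom called 0 of the 14 regulators. At an unadjusted edgeR p under 0.05, 1 regulator was lower, where 12.7% of all genes were. It was Cul3, the ubiquitin ligase scaffold that works with Keap1. Cul3 stood at 58.6 ± 7.80 CPM in AVE0991 and 78.5 ± 6.97 CPM in vehicle libraries (log2 fold change -0.42, adjusted p = 0.131). Its GC content was 38.5%, and after the GC correction the direction turned, to 0.13. Dpp3, a peptidase that binds Keap1, was next at 0.20 (adjusted p = 0.252), and at 0.0052 after the GC correction.

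Of 20 further targets of Nrf2, 16 lay above 0 with a median of 0.13. This was 0.05 after the GC correction, 0.05 with plain library totals and 0.04 on the log2(FPKM + 0.1) scale. Over all genes tested, the medians of these fits were -0.0215, -0.0926 and -0.0862. By unadjusted edgeR p 3 of 20 were higher (Ephx1, Pgd and Abcc1), where 10.9% of all genes were, and 0 lower. DESeq2 called 1 of 20 higher, where it called 5.39% of all genes, and limma-voom called 0. Ephx1, the microsomal epoxide hydrolase and the target called by DESeq2 (adjusted p = 0.0405), stood at 34.7 ± 5.22 CPM in AVE0991 and 23.3 ± 4.51 CPM in vehicle libraries (log2 fold change 0.57, edgeR adjusted p = 0.135). It stood at 0.42 after the GC correction and 0.36 without AVE0991 replicates 2 and 3. Pgd, an enzyme of the pentose phosphate pathway that makes NADPH, stood at 0.27 (adjusted p = 0.184).

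The list of cystine and glutathione metabolism had 13 genes, of which 11 were tested. Slc7a9 and Slc3a1, which form a renal cystine transporter, did not pass the filter, and Slc7a9 was listed at 0 in every library. Of the 11, 8 lay above 0 with a median of 0.15. This was 0.04 after the GC correction, 0.07 with plain library totals and 0.05 without AVE0991 replicates 2 and 3. Over all genes tested, the medians of these fits were -0.0215, -0.0926 and -0.0284. Without single libraries the median of the 11 ranged from 0.08 (without vehicle replicate 1) to 0.27 (without vehicle replicate 2). By unadjusted edgeR p 3 of 11 were higher and 1 lower, where 10.9% and 12.7% of all genes were. DESeq2 called 3 higher (Slc3a2, Cbs and Oplah) and 1 lower, where it called 5.39% and 7.11% of all genes. Limma-voom called 2 higher (Cbs and Oplah) and 0 lower, where it called 2.2% and 3.54% of all genes. The gene called lower was Chac2, an enzyme that degrades glutathione, named after its values were seen, at 2.68 ± 0.641 CPM in AVE0991 and 4.46 ± 0.438 CPM in vehicle libraries (log2 fold change -0.74, edgeR adjusted p = 0.134; DESeq2 adjusted p = 0.0430). Its GC content was 37.6%, lower than that of Slc7a11. Oplah, which recovers glutamate from 5-oxoproline in the glutathione cycle, stood at 73.1 ± 10.5 CPM in AVE0991 and 47.2 ± 0.912 CPM in vehicle libraries (log2 fold change 0.63, SE 0.12, edgeR adjusted p = 0.0687). Cbs, the first enzyme of the route from homocysteine to cysteine, stood at 59.5 ± 8.38 CPM in AVE0991 and 38.5 ± 1.11 CPM in vehicle libraries (0.63, SE 0.12, adjusted p = 0.0693). For both, every AVE0991 library lay above every vehicle library, as for 14.3% of all genes tested. After the GC correction Cbs stood at 0.56 (adjusted p = 0.214) and Oplah at 0.42 (adjusted p = 0.236). Both passed without AVE0991 replicate 1 (Cbs 0.74, edgeR adjusted p = 0.00785, and Oplah 0.74, edgeR adjusted p = 0.00806). That fit kept AVE0991 replicates 2 and 3, the libraries with cerebellar markers, and called 1386 of 20918 genes higher. Without any other single library neither gene passed (edgeR adjusted p from 0.144 to 0.265). With all 6 libraries and no filter on low counts both passed too (edgeR adjusted p = 0.0396 for Cbs and 0.0388 for Oplah). In that fit 58 of 33731 genes were called higher. Without AVE0991 replicates 2 and 3 Cbs stood at 0.38 and Oplah at 0.39, and astrocyte markers, whose median log2 fold change was 0.63, lay in the same direction. Their part was not tested.

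Because Slc7a11 is also a target of ATF4, 12 genes of that response were listed. Of these, 11 lay above 0, with a median of 0.17. This was 0.13 after the GC correction, 0.08 with plain library totals, 0.08 on the log2(FPKM + 0.1) scale and 0.09 without AVE0991 replicates 2 and 3. Over all genes tested, the medians of these fits were -0.0215, -0.0926, -0.0862 and -0.0284. By unadjusted edgeR p 3 of 12 were higher (Shmt2, Ddit4 and Sesn2), where 10.9% of all genes were, and 0 lower. DESeq2 called Shmt2 and Ddit4 higher, where it called 5.39% of all genes, and limma-voom called Shmt2, where it called 2.2%. Shmt2, a mitochondrial enzyme of one-carbon metabolism, stood at 28.7 ± 5.09 CPM in AVE0991 and 18.9 ± 0.205 CPM in vehicle libraries (log2 fold change 0.60, adjusted p = 0.097). It stood at 0.39 after the GC correction and 0.28 without AVE0991 replicates 2 and 3. It passed without AVE0991 replicate 1 (0.74, edgeR adjusted p = 0.00799), where 1386 of 20918 genes were called higher. Without any other single library it did not pass (edgeR adjusted p from 0.199 to 0.285). Ddit4, an inhibitor of mTORC1 signalling, stood at 0.48 (adjusted p = 0.139), at 0.28 after the GC correction and at 0.32 without AVE0991 replicates 2 and 3. Atf4 itself, named after its values were seen, was at 77.6 CPM in AVE0991 and 69.3 CPM in vehicle libraries on average (log2 fold change 0.16, adjusted p = 0.432). Slc7a11, at -0.73, lay on the other side of 0 from most measured genes of both lists, and that contrast was not tested. After the GC correction Slc7a11 stood at -0.32, and the part of GC content in the contrast was not tested either.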

How the data were processed

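RNA of 6 libraries was compared, 3 per group. The labels' protocols give Trizol extraction, removal of ribosomal RNA and second strands made with dUTP. HISAT and mm9 are named in the submitters' processing notes. For their versions, the counting program, its strand setting and the annotation, no source used here gives a statement. The deposited table gave estimated counts for 36210 gene rows and FPKM values of the authors for the same rows, a unit inferred from how they relate to the counts. Another deposited table gave the authors' log2 fold changes with p-values and q-values, which came from DESeq2 per the file headers.

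Estimated counts were rounded to whole numbers and tested in R 4.3.3 with edgeR 4.0.16 (filterByExpr, TMM, robust quasi-likelihood F test, no covariates), with Benjamini-Hochberg adjustment over 20363 genes. Each SE was taken as |log2 fold change|/√F. Alternatives used DESeq2 1.42.0 and limma 3.58.1. The GC correction subtracted a lowess curve (span 0.3) of each library's deviation against GC content of the longest GENCODE M21 transcript. GRCm38 served only for names, GC content and promoter sequence, never for coordinates of the files. Counts were simulated with no GC trend and no shift in the mix of cells, so the shares found may not hold for the real libraries. In simulated counts, the test recovered 32% of 100 genes changed by 1 on the log2 scale and 79% of 100 changed by 2. Of its 130 calls, 19 were false. A gene that did not pass may therefore still differ. No 2 libraries matched within counting noise (smallest chi-square per gene 16.4). Genes were named as all 10 members, the called genes of each further list and its 2 genes of smallest p. The members and lists were chosen with earlier results of these data known.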

Additional observations from a re-analysis of the deposited data

How the results depend on the processing

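The 10 members were recomputed under 18 alternative settings, of which the fit without AVE0991 replicates 2 and 3 was chosen after seeing the data. Of 180 member values, 163 kept their direction and side of the threshold, 6 newly passed and 11 changed direction. All 6 that passed were Slc7a11, whose log2 fold change ranged from -0.81 to -0.32: it was the 1 member called lower with plain library totals, without a filter, with a minimum mean of 1 CPM, by DESeq2, by limma-voom and without AVE0991 replicate 1. Leaving out single libraries gave 0 to 1 member called lower. No member was called higher under any setting; the smallest adjusted p of the other 9 was 0.0675, for Hmox1 without AVE0991 replicate 1.

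The direction turned for Gclc (-0.0094) and Txnrd1 (-0.022) with plain library totals, for Txnrd1 by limma-voom (-0.070), for Gclc (-0.013) and Txnrd1 (-0.0149) on log2(FPKM + 0.1), for Gclm without AVE0991 replicate 2 (-0.034, with 0.39 the other end of its range without single libraries), for Txnrd1 without vehicle replicate 1 (-0.0151, the other end being 0.16), for Keap1 (-0.076) and Cul3 (0.13) after the GC correction, and for Nfe2l2 (-0.039), Nqo1 (-0.044) and Gclm (-0.13) without AVE0991 replicates 2 and 3. With plain library totals and on log2(FPKM + 0.1) the median over all genes tested was also lower, at -0.0926 and -0.0862, against -0.0069 in the main fit. The cause of the turns was not tested.

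Over all genes, 7 were called higher and 169 lower. The counts were 16 and 544 with plain library totals, 58 and 379 without a filter, 18 and 328 with a minimum mean of 1 CPM, 1012 and 1335 by DESeq2, 449 and 721 by limma-voom, 1 and 1 with circular RNA rows in the same fit, 7 and 287 on FPKM, and 1 and 0 after the GC correction (3113 at an unadjusted p under 0.05). Without single libraries they ranged from 0 to 1386 higher and 0 to 995 lower; the high ends came without AVE0991 replicate 1, and the other 5 fits gave 0 and 0 by edgeR (3205 to 3818 at an unadjusted p under 0.05). Without AVE0991 replicates 2 and 3, where the lone library is assumed to vary like the vehicle group, they were 0 and 0 (2833 unadjusted).

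The titles number the libraries 1 to 3 in each group, but same-numbered libraries did not deviate together (correlations of deviations across genes -0.02, 0.09 and -0.35), so the numbers were not taken as pairs. A fit with the replicate number as a block gave 0 genes higher and 0 lower (3937 unadjusted), with Slc7a11 at -0.73 (adjusted p = 0.134).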
